A study of Mus musculus with 10 samples.

Results

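Transcripts of 7 CC chemokines (Ccl2, Ccl3, Ccl4, Ccl6, Ccl7, Ccl8 and Ccl9) and of 2 receptors that myeloid cells use to sense such chemokines (Ccr1 and Ccr2) were followed in neutrophils from mouse squamous cell carcinomas. These 9 genes were taken by symbol from the 55385 mouse genes of the count table, and all 9 had enough reads to be tested. The tumours were grafts of parental cells with low Sox2 (control) or of cells with high Sox2 (Sox2Hi), a transcription factor of stem cells, grown on CatchupIVM-red mice. In these hosts neutrophils carry a red Tomato protein driven from the neutrophil locus Ly6g, and the cells profiled were sorted on Tomato. Tumours were left naive or received anti-PDL1 and a CD40 agonist, an antibody combination that blocks a checkpoint ligand and stimulates antigen-presenting cells. The question in the series' design is whether Sox2 lets tumour cells dampen what neutrophils do in response to interferons. Bulk RNA sequencing gave 3 libraries of naive and 2 of treated control tumours, and 3 of naive and 2 of treated Sox2Hi tumours. The library descriptions of control grafts carry the tag GFP and those of all mice the tag C57. The labels give neither the age of the mice nor the other alleles of the grafted lines. Nothing in the labels says that replicates came from separate mice, so the p-values below measure the spread between these libraries.

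CC chemokines are small secreted proteins with adjacent cysteines that draw leukocytes along a gradient by activating receptors coupled to inhibitory G proteins. Ccl3 and Ccl4 are inflammatory chemokines that attract monocytes and lymphocytes, among other cells, and Ccl3 is a ligand of Ccr1. Ccl6 and Ccl9 are rodent chemokines made by myeloid cells that act through Ccr1. Ccl2 and Ccl7 act through Ccr2 and bring monocytes from bone marrow to tissue, and mouse Ccl8 is known as a ligand of Ccr8. Ccr1 is carried by neutrophils and monocytes, while Ccr2 is best known from classical monocytes and is low on neutrophils of healthy blood.

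The chemokine genes lie in 2 stretches of chromosome 11, here given in GRCm38. Ccl2 (ENSMUSG00000035385, chr11:82035571-82037453), Ccl7 (ENSMUSG00000035373, chr11:82045712-82047525) and Ccl8 (ENSMUSG00000009185, chr11:82115185-82116799) follow each other on the plus strand. Ccl9 (ENSMUSG00000019122, chr11:83572919-83578636), Ccl6 (ENSMUSG00000018927, chr11:83587882-83593087) and Ccl3 (ENSMUSG00000000982, chr11:83647844-83649355) lie on the minus strand, and Ccl4 (ENSMUSG00000018930, chr11:83662584-83664683) lies on the plus strand beside Ccl3. The receptor genes are on chromosome 9: Ccr1 (ENSMUSG00000025804, chr9:123962124-123968692, minus strand) and Ccr2 (ENSMUSG00000049103, chr9:124101950-124113557, plus strand). All 9 are protein-coding genes. Ccl2 overlaps an antisense gene, Gm17268, that had at most 1 count in a library. Ccl6 overlaps E230016K23Rik on the other strand, which had 92 to 155 counts per library.

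Upstream sequences are shown for 4 members because 3 of them (Ccl3, Ccl6 and Ccr1) rose with treatment in control grafts while Ccl9, the neighbour of Ccl6, did not pass the test. The RefSeq promoter table held 6 of the 9 genes, and the window of Ccr2, with 233 bases inside its exons, is not shown. Each sequence is the 250 bases before the RefSeq start site in GRCm38.p6, read 5' to 3' on the gene's own strand (minus for all 4). The windows are chr11:83649379-83649628 for Ccl3, chr11:83593088-83593337 for Ccl6, chr11:83578637-83578886 for Ccl9 and chr9:123968693-123968942 for Ccr1. Capitals mark matches to a searched motif.
Ccl3: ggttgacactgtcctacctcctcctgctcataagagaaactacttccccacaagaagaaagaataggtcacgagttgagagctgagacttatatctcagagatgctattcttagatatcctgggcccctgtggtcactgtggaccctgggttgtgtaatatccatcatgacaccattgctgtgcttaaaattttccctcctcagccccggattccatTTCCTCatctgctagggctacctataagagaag
Ccl6: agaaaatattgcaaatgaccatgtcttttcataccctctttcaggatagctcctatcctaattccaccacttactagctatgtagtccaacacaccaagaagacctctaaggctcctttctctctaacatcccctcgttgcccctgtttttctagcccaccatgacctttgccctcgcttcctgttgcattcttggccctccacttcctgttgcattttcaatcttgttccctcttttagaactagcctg
Ccl9: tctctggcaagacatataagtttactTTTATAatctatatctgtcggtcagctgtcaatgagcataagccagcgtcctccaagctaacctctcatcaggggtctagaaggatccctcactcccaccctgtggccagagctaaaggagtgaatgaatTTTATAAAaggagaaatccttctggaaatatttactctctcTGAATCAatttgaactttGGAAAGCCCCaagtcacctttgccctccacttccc
Ccr1: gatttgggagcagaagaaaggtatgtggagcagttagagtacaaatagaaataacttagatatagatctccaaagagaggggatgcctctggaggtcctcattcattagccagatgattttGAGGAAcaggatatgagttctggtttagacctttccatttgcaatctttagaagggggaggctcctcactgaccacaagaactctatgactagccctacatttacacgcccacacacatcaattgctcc
The search covered 7 motifs on both strands: NF-kB by its name, an interferon response element (GAAANNGAAA), the STAT element GAS (TTCNNNGAA), AP-1 (TGANTCA), C/EBP (TTGCNNAA), PU.1 (GAGGAA) and the TATA box (TATAAA). The Ccl9 window held the NF-kB motif at -35 to -26 from the start site, AP-1 at -53 to -47, and TATAAA at -224 to -219, -94 to -89 and -92 to -87, the last 2 overlapping on opposite strands. The Ccl3 window held a PU.1 match at -33 to -28 and the Ccr1 window one at -129 to -124. No searched motif was found in the Ccl6 window. Of 32851 promoter windows of this length, 3.9% held the NF-kB motif, 6.75% AP-1, 12.4% TATAAA and 23.3% PU.1. The interferon, GAS and C/EBP motifs, present in 2.98%, 7.02% and 9.56% of windows, were in none of the 5 member windows read. The fifth window, that of Ccl8, held PU.1 at -240 to -235 and TATAAA at -32 to -27. These matches describe letters in the windows and are not measured binding sites.

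Libraries held 13815734 to 22986193 gene counts. Neutrophil transcripts were the most abundant of the 9 marker lists read: the 12 markers summed to between 11802 and 43243 CPM (counts relative to the library total, scaled for composition), of which Il1r2 gave 42.6% to 68.2% in the group means, while Ly6g itself was at 1.62 to 18.3 CPM. No marker of any list was at 0 in all libraries. Reads expected from background, estimated from receptor genes of the nose taken as silent, made up 1.58% (control treated 2) to 8.37% (control naive 2) of a library. For the chemokines and receptors this share was between 0.0111% of reads (Ccl3) and 2.41% (Ccr2, with up to 8.62% in 1 library).

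Ccl3 and Ccl4 had the highest levels per kb of exon in every group, followed by Ccr1 and Ccl6, and Ccl9 and Ccr2 had the lowest. In naive control neutrophils Ccl3 was at 1892 ± 608 CPM per kb (SD, n = 3), Ccl4 at 1837 ± 749, Ccr1 at 888 ± 198 and Ccl6 at 574 ± 170. Ccl7 followed at 422 ± 91.6 CPM per kb, Ccl8 at 393 ± 42, Ccl2 at 89.9 ± 10.5, Ccl9 at 23.5 ± 6.42 and Ccr2 at 6.99 ± 3.82. The ranges of Ccl3 and Ccl4 per kb overlapped in 3 of the 4 groups and were apart in treated Sox2Hi, and within each naive or treated Sox2Hi library Ccl3 was above Ccl4. Ccl2 was the 7th of the 9 in both naive groups and in treated Sox2Hi, and was 6th in treated control, at 608 ± 229 CPM per kb (n = 2) beside 567 ± 153 for Ccl7. Ccr2 and Ccl9 overlapped in both treated groups (30.7 ± 7.75 and 29.3 ± 3.82 CPM per kb in treated control), whereas every naive library of both grafts had Ccl9 above Ccr2.

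**Figure D1:**
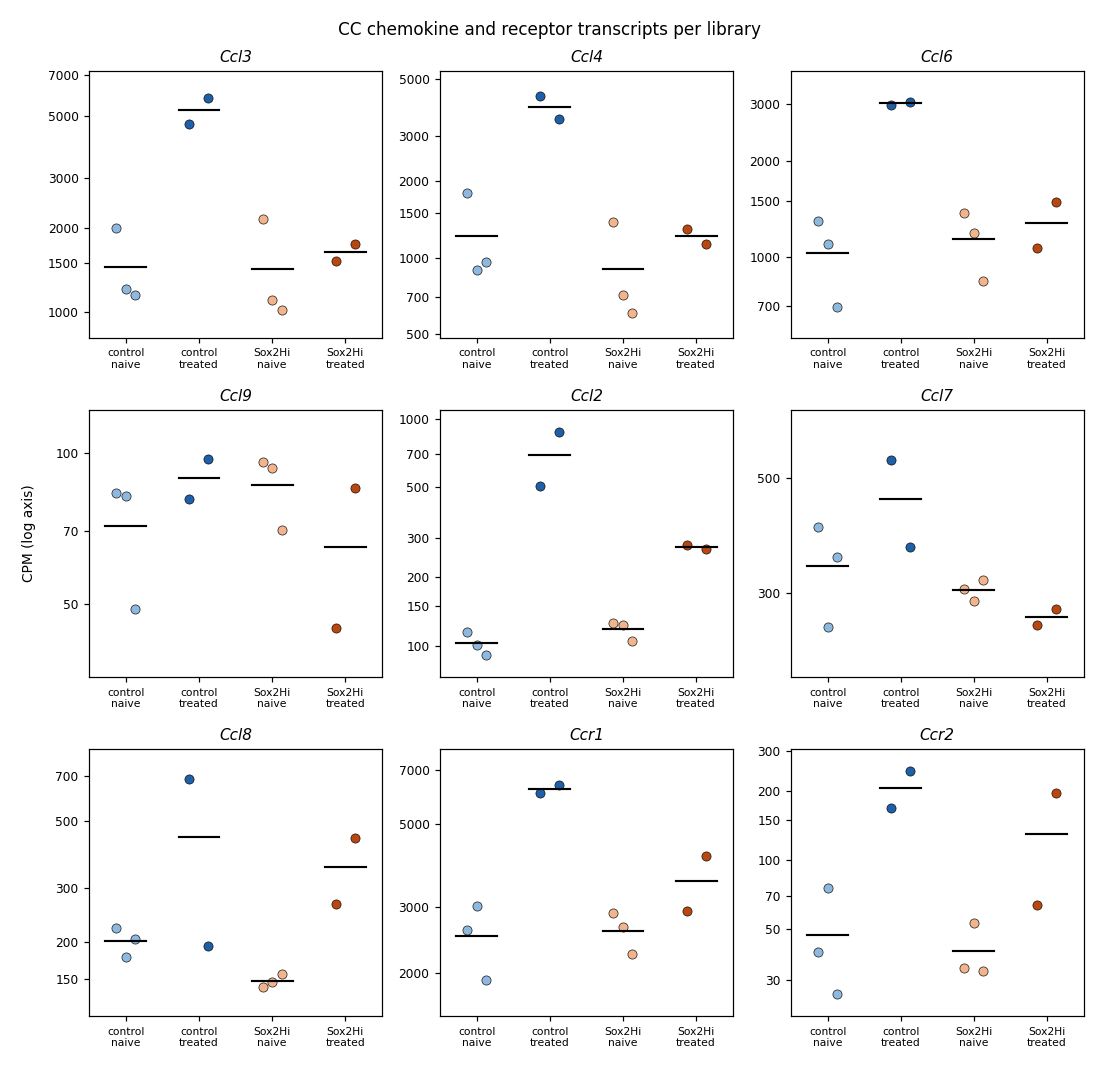
CPM (log axis) of each of the 9 genes in each library, with a bar at the group mean. For Ccl3, Ccl4, Ccl6 and Ccr1 the 2 treated control libraries lie above the other 8, and for Ccl8 the 2 treated control libraries lie far apart (689 and 193 CPM).

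Most of these transcripts were higher after treatment in neutrophils of control tumours, and only Ccl2 was called higher in neutrophils of Sox2Hi tumours. A gene was called at an adjusted p under 0.05 (edgeR's quasi-likelihood test, Benjamini-Hochberg over 29648 genes). In control grafts 7 of the 9 were higher after treatment (Ccl2, Ccl3, Ccl4, Ccl6, Ccl8, Ccr1 and Ccr2) and none was lower, with a median log2 difference of 1.55. Of all genes tested, 12.5% were called higher in that comparison and 36.1% lower, with a median of -0.72. Abundant genes as a group were also higher: of the 1481 genes at 100 CPM or more, 59.8% were called higher, with a median of 0.68. Scaling factors from all filtered genes moved the all-gene median to -0.30 in this comparison and gave 8 of 9 calls. The direction of calls over all genes depended on the scaling: of the genes called, 25.7% were higher here, against 55.3% with those factors. It was 27.4% with RLE factors, 6.97% with library totals, 84.5% with DESeq2 and 31.3% with limma-voom. In Sox2Hi grafts only Ccl2 was called, 1 of 9 higher against 3.36% of all genes, and the median of the 9 was 0.43 against 0.27. The call for Ccl2 there was lost without Sox2Hi treated replicate 2 (log2 difference 1.23, adjusted p = 0.095), which gave 0 calls. The 2 Sox2Hi groups fitted alone gave 3 calls, adding Ccl8 and Ccr2, and either replicate block gave 2, adding Ccr2. Over all genes 66.9% of the calls in Sox2Hi grafts were higher, against 26.9% to 53.5% under the other scalings and DESeq2, and 64.6% with limma-voom. Every treated library lay above every naive one for 6 of 9 in control grafts (Ccl2, Ccl3, Ccl4, Ccl6, Ccr1 and Ccr2), beside 16.1% of all genes, and for 4 of 9 in Sox2Hi grafts (Ccl2, Ccl8, Ccr1 and Ccr2), beside 34.6%. Only Ccl7 lay below in every treated Sox2Hi library, as did 14.2% of all genes.

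The grafts had no called difference in naive tumours and 5 of 9 called differences in treated ones. Between naive Sox2Hi and control grafts edgeR called 0 of 9, beside 5.8% of all genes, and 0 had an unadjusted p under 0.05, with a median of -0.03. DESeq2 called 3 (Ccl2, Ccl9 and Ccr1, all higher in Sox2Hi), beside 24.9% of the genes it gave an adjusted p, and limma-voom 1 (Ccl4, lower), beside 31.7%. Same-numbered naive libraries deviated together, and with the number as a replicate block the naive libraries alone gave 2 calls of 9, beside 20.2% of genes. These were Ccl4, lower by a log2 difference of -0.47 (adjusted p = 0.03), and Ccl8, lower by -0.45 (adjusted p = 0.024), for which every naive Sox2Hi library lay below every naive control one, as for 30.1% of all genes. After treatment Ccl2, Ccl3, Ccl4, Ccl6 and Ccr1 were lower in Sox2Hi than in control, 5 of 9 beside 3.29% of all genes called lower. Among genes at 100 CPM or more 28.2% were called lower in that comparison. Of all genes called, 15.7% were higher in Sox2Hi between naive grafts, against 56.5% to 90.7% under the other scalings and DESeq2, and 20.1% with limma-voom. RLE factors and library totals gave only 13 and 23 calls there. Between treated grafts 74.6% were higher, against 10.6% to 97.2% under the other scalings and DESeq2, and 62.7% with limma-voom. Only 2 libraries stand on each side: without control treated replicate 1 there were 2 calls, and without control treated replicate 2, Sox2Hi treated replicate 1 or Sox2Hi treated replicate 2 there were 0. Background subtraction, which left 21439 genes to test, gave 1 call (Ccl3 at an adjusted p of 0.057, Ccl4 at 0.071, Ccl6 at 0.087 and Ccr1 at 0.18). The expected background was 0.0111% of the reads of Ccl3, 0.0131% of Ccl4, 0.0385% of Ccl6 and 0.0263% of Ccr1. Why these calls were lost in the refit was not tested. The 2 treated groups fitted alone gave 3 calls. The groups did not overlap for 6 of the 9, these 5 and Ccl7, where every treated Sox2Hi library lay below both treated control libraries, as for 16.3% of all genes.

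The test of the difference between the grafts' treatment responses (the interaction) called 3 of 9, Ccl2, Ccl3 and Ccl6, all with the lower response in Sox2Hi. Of all genes 4.42% were called in that direction and 26.8% in the other, and of the genes at 100 CPM or more 31.3% were called in the direction of the 3. The interaction shares its libraries with the comparisons above and is no separate evidence. The count was 7 with scaling factors from all filtered genes, 5 with the replicate block by title number, 1 without control treated replicate 2 and 1 without Sox2Hi treated replicate 1. DESeq2 called 7 of 9, all lower, beside 30.8% of genes called lower and 5.02% higher, and with factors from all filtered genes these shares were 16.3% and 11.2%.

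**Figure D2:**
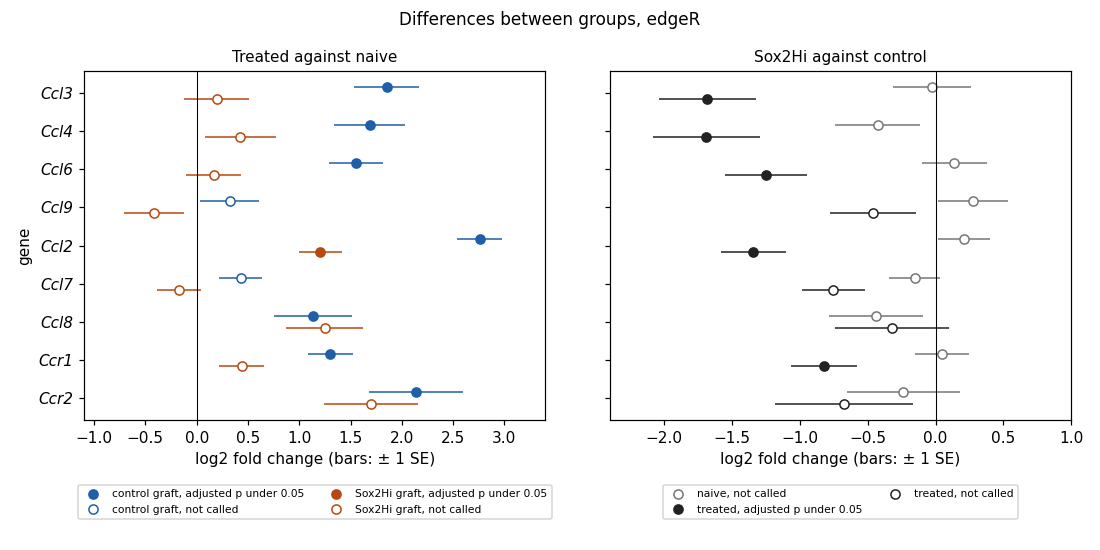
Log2 fold changes with bars of 1 SE from edgeR, treated against naive in each graft (left) and Sox2Hi against control in naive and treated tumours (right); filled points have an adjusted p under 0.05. On the left 7 filled points belong to control grafts and 1, Ccl2, to Sox2Hi grafts, and on the right the 5 filled points are all treated comparisons.

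Among the inflammatory chemokines and the ligands of Ccr1, Ccl3 was at 1986, 1211 and 1151 CPM in naive control libraries and at 4677 and 5782 CPM in treated control ones. In Sox2Hi it was at 2152, 1106 and 1013 CPM naive and 1522 and 1740 CPM treated. The control groups did not overlap, while both treated Sox2Hi values fell inside the range of the naive ones. Ccl3 rose by a log2 difference of 1.85 (SE 0.316, adjusted p = 0.0013) in control grafts, and differed by 0.20 (SE 0.318, adjusted p = 0.73) in Sox2Hi grafts. The responses differed by -1.66 (SE 0.454, adjusted p = 0.02), which was not called without control treated replicate 2 (-1.51, adjusted p = 0.064) or Sox2Hi treated replicate 1 (-1.56, adjusted p = 0.076). It was also not called by limma-voom (-1.25, adjusted p = 0.05) or after background subtraction (-1.38, adjusted p = 0.11).

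Ccl4, which shares its inflammatory role with Ccl3, was at 1782, 892 and 964 CPM in naive control and at 4308 and 3495 CPM in treated control libraries. Naive Sox2Hi libraries had 1382, 714 and 607 CPM and treated Sox2Hi ones 1288 and 1133 CPM. Replicate 1 of each naive group was the highest of its group for both Ccl3 and Ccl4. Ccl4 rose by 1.69 (SE 0.346, adjusted p = 0.0032) in control grafts and was lower in treated Sox2Hi than in treated control by a log2 difference of -1.69 (SE 0.394, adjusted p = 0.026). Its interaction, -1.26 (SE 0.498, adjusted p = 0.069), was not called. With a replicate block it was called, at -1.22 by title number (adjusted p = 0.014) and -1.59 by description number (adjusted p = 0.012), as it was in 4 other alternatives.

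Ccl6, the Ccr1 ligand of myeloid cells, was at 1297, 1095 and 697 CPM in naive control and at 2990 and 3060 CPM in treated control libraries. The Sox2Hi values were 1371, 1188 and 840 CPM naive and 1062 and 1484 CPM treated, overlapping each other and the naive control range. Ccl6 rose by 1.56 (SE 0.265, adjusted p = 0.0013) in control grafts, and its difference in Sox2Hi grafts was 0.17 (SE 0.268, adjusted p = 0.72). The interaction of -1.39 (SE 0.382, adjusted p = 0.021) lost its call without control treated replicate 2 (adjusted p = 0.053) or Sox2Hi treated replicate 1 (-1.16, adjusted p = 0.089). It also lost it without Sox2Hi naive replicate 1 (-1.03, adjusted p = 0.06) or replicate 2 (-1.16, adjusted p = 0.051), and after background subtraction (-1.1, adjusted p = 0.13).

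Ccl9, transcribed next to Ccl6 and acting on the same receptor, was not called in any comparison by edgeR as fitted here. It was at 83.3, 82.2 and 48.9 CPM in naive control and 81.1 and 97.5 CPM in treated control libraries, and at 95.9, 93.5 and 70.1 CPM naive and 44.7 and 85 CPM treated in Sox2Hi. The groups overlapped in all 4 comparisons. The log2 difference with treatment was 0.32 (SE 0.285, adjusted p = 0.35) in control and -0.42 (SE 0.29, adjusted p = 0.39) in Sox2Hi grafts. The control value depended on the scaling: it was -0.31 with library totals alone, and DESeq2 gave a called rise of 0.984 (adjusted p = 0.0046). Without control naive replicate 3 it was -0.03.

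Of the ligands of Ccr2, Ccl2 had the largest response to treatment of the 9 genes in control grafts. Its level was 115, 101 and 91.2 CPM in naive control libraries and 508 and 876 CPM in treated control ones. In Sox2Hi it was 126, 124 and 105 CPM naive and 279 and 266 CPM treated, so every treated library of either graft lay above every naive one. The log2 rise was 2.76 (SE 0.216, adjusted p = 1.7e-05), or 6.76-fold, in control and 1.20 (SE 0.211, adjusted p = 0.0096), or 2.3-fold, in Sox2Hi grafts. The interaction was -1.55 (SE 0.305, adjusted p = 0.0063), and it was called under all 20 alternatives run for it, leaving out any library included.

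Ccl7, the neighbour of Ccl2 and a ligand of the same receptor, was at 402, 258 and 352 CPM in naive control and 541 and 368 CPM in treated control libraries. Sox2Hi libraries had 305, 289 and 318 CPM naive and 260 and 279 CPM treated. The control groups overlapped, and both treated Sox2Hi libraries lay just below the 3 naive ones. The log2 differences with treatment, 0.43 (SE 0.208, adjusted p = 0.1) in control and -0.17 (SE 0.211, adjusted p = 0.64) in Sox2Hi, were not called. With library totals alone the control value was -0.21, and with factors from all filtered genes it was 0.82 (adjusted p = 0.019). Treated Sox2Hi against treated control gave -0.75 (SE 0.231, adjusted p = 0.05), just outside the threshold. It was called in 6 of 21 alternatives, among them the replicate block by title number (-0.72, adjusted p = 0.035), DESeq2 (-1.24, adjusted p = 0.00017) and factors from all filtered genes (-1.08, adjusted p = 0.022).

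Ccl8, the ligand of Ccr8, split the treated control libraries, which had 689 and 193 CPM against 221, 178 and 204 CPM in naive control. Its rise in control grafts (1.13, SE 0.378, adjusted p = 0.028) rested on control treated replicate 1, without which the log2 difference was -0.09 (adjusted p = 0.79). It was also not called in 8 other alternatives, among them the replicate blocks by title number (adjusted p = 0.054) and description number (adjusted p = 0.11). In Sox2Hi grafts the treated libraries, at 265 and 440 CPM, lay above the naive ones at 142, 147 and 156 CPM, with a log2 difference of 1.25 (SE 0.378, adjusted p = 0.076). That difference was called when the 2 Sox2Hi groups were fitted alone (adjusted p = 0.015) and in 5 other alternatives. The interaction was 0.11 (SE 0.542, adjusted p = 0.88), and without control treated replicate 1 it was 1.33 (adjusted p = 0.025).

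The receptor Ccr1 was the most abundant of the 9 by read count, at 2602, 3027 and 1917 CPM in naive control and 6053 and 6362 CPM in treated control libraries. Naive Sox2Hi libraries had 2898, 2649 and 2242 CPM, and treated Sox2Hi ones 2932 and 4102 CPM, the lower of which barely exceeded the highest naive value. Ccr1 rose by 1.30 (SE 0.217, adjusted p = 0.0011) in control grafts. The difference in Sox2Hi grafts was 0.44 (SE 0.218, adjusted p = 0.24). In treated tumours Ccr1 was lower in Sox2Hi than in control by a log2 difference of -0.82 (SE 0.243, adjusted p = 0.047), a call lost in 13 alternatives. Its interaction was -0.87 (SE 0.312, adjusted p = 0.052), and it was called in 6 alternatives, among them the replicate block by title number (-0.90, adjusted p = 0.018).

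Ccr2, the monocyte receptor, was at 39.6, 76 and 26.1 CPM in naive control and 170 and 245 CPM in treated control libraries. In Sox2Hi it was at 34, 53.4 and 32.7 CPM naive and 63.9 and 196 CPM treated, the treated libraries differing by more than the naive ones. It rose by 2.14 (SE 0.461, adjusted p = 0.004) in control grafts, and in Sox2Hi grafts the log2 difference was 1.70 (SE 0.459, adjusted p = 0.053). That difference was called in 10 of 21 alternatives, among them DESeq2 (1.47, adjusted p = 0.0098), limma-voom (adjusted p = 0.035) and the replicate blocks by title number (1.31, adjusted p = 0.022) and description number (1.8, adjusted p = 0.049). It was 2.3 (adjusted p = 0.018) without Sox2Hi treated replicate 1, the lower library, and 0.67 (adjusted p = 0.54) without replicate 2. The interaction of -0.44 (SE 0.657, adjusted p = 0.62) was not called, so a difference between grafts in the response of Ccr2 was not detectable with this spread.

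Shares of the 7 chemokines' summed level per kb, which do not depend on how libraries are scaled, changed in make-up with treatment. Ccl2 made up 1.78% ± 0.318 (SD, n = 3) of the sum in naive control and 3.71% ± 1.48 (n = 2) in treated control, and 2.36% ± 0.565 and 4.04% ± 0.449 in Sox2Hi. Every treated library was above every naive library of its graft. Ccl7 had 8.27% ± 1.74 and 3.43% ± 0.841 in control and 8.73% ± 2.7 and 5.65% ± 0.147 in Sox2Hi, with every treated library below every naive one. Ccl9 likewise had 0.462% ± 0.14 and 0.178% ± 0.0278 in control and 0.637% ± 0.143 and 0.352% ± 0.13 in Sox2Hi. Ccl3 held 35.7% to 41.5% of the sum in the group means and Ccl4 28.6% to 35.8%, and only for Ccl3 in Sox2Hi did the treated libraries (35.3% and 36.1%) lie below the naive ones, whose lowest was 36.3%. Ccl8 went from 6.73% ± 2.22 to 11.4% ± 3.17 in Sox2Hi, with treated libraries at 9.21% and 13.7% above the naive ones (4.3% to 8.67%), whereas in control its naive (6.11% to 9.3%) and treated (2.33% and 8.03%) libraries overlapped. Ccl6 held 10.2% to 13.9% in the group means, and its naive and treated libraries overlapped in both grafts. No test was run on the shares. By CPM, every treated library lay above every naive one for 16.1% of all genes in control and 34.6% in Sox2Hi grafts. In Sox2Hi grafts 14.2% lay below. Such separation by share was not counted over all genes.

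**Figure D3:**
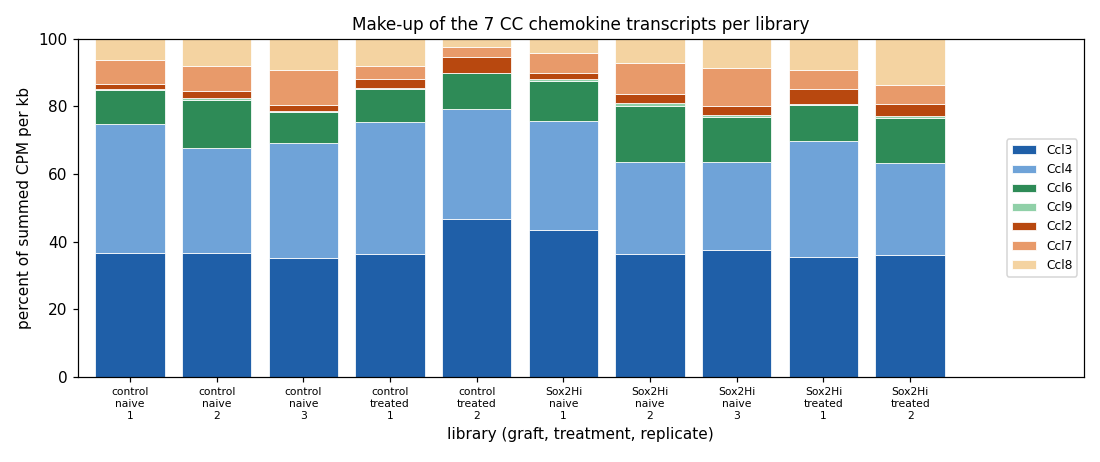
Share (percent) of the summed CPM per kb of the 7 chemokines taken by each chemokine in each library. Ccl3 and Ccl4 together fill most of every bar, and the part of Ccl7 is smaller in treated than in naive libraries of the same graft.

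Ratios of neighbouring genes within a library were chosen after their levels were seen and are given without a test. Those of chemokines use the same counts as the shares and are no separate evidence. The ratio of Ccl2 to Ccl7 counts was 0.286, 0.39 and 0.259 in naive control and 0.938 and 2.38 in treated control libraries. In Sox2Hi it was 0.413, 0.431 and 0.33 naive and 1.08 and 0.953 treated, so that the ratio in the 4 treated libraries exceeded that of all 6 naive ones. Ccl6 to Ccl9 was 15.6, 13.3 and 14.3 in naive control, 36.9 and 31.4 in treated control, 14.3, 12.7 and 12 in naive Sox2Hi and 23.8 and 17.5 in treated Sox2Hi libraries. The treated control values were the highest, the treated Sox2Hi values came next, and the naive groups overlapped. Ccl3 to Ccl4 was between 1.09 and 1.67 in all 10 libraries, with naive Sox2Hi libraries (1.55 to 1.67) above naive control (1.11 to 1.36) and treated Sox2Hi ones (1.18 to 1.54). Ccr1 to Ccr2 averaged 59.7 ± 17.6 and 67.8 ± 17.8 in the naive groups (n = 3 each) and 30.8 ± 6.72 and 33.4 ± 17.7 in the treated groups (n = 2 each), with every treated library below the naive ones of its graft.

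**Figure D4:**
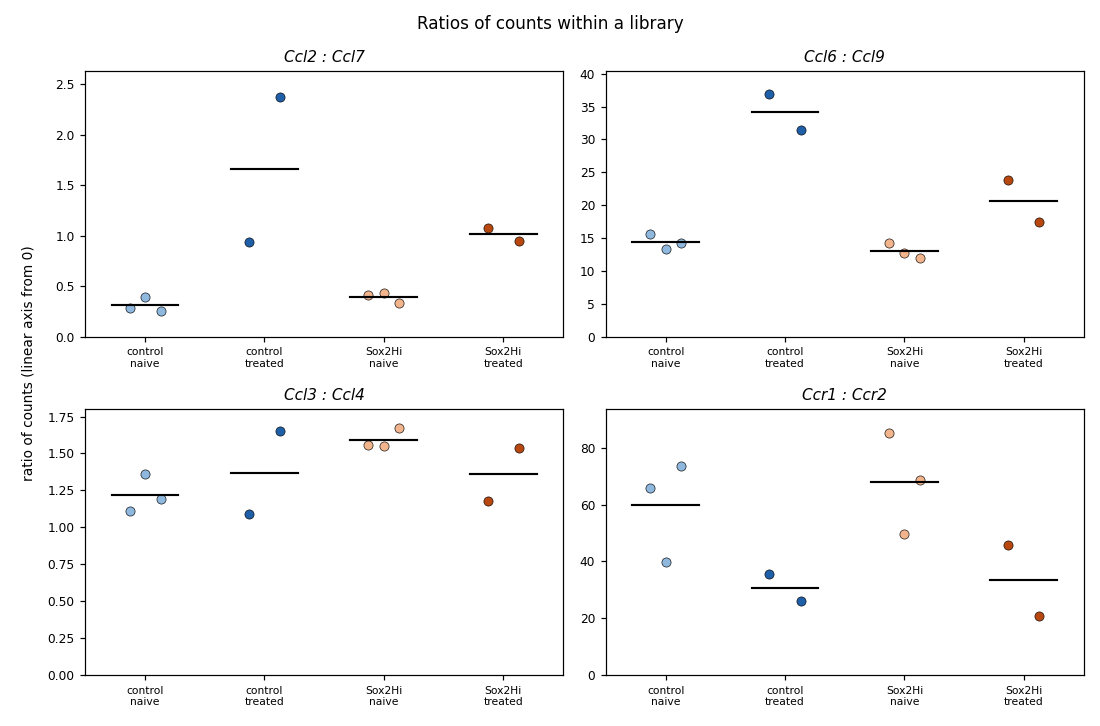
Ratios of counts of neighbouring or paired genes in each library (linear axes from 0), with a bar at the group mean. The Ccl2 to Ccl7 ratio is at most 0.431 in naive and at least 0.938 in treated libraries, while the Ccl3 to Ccl4 ratio of naive Sox2Hi libraries lies above those of naive control and treated Sox2Hi ones.

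Of 14 other CC chemokine genes 13 were tested. With treatment 4 were higher and 3 lower in control grafts, beside 12.5% and 36.1% of all genes, with a median of -0.37. DESeq2 called 5 higher and 1 lower there, beside 22.7% and 4.16% of genes. In Sox2Hi grafts 3 were higher and 1 lower, beside 3.36% and 1.66%, with a median of 0.58. The interaction was called for 3 with the higher response in Sox2Hi and 0 with the lower, beside 26.8% and 4.42% of all genes. DESeq2 called 1 and 2, beside 5.02% and 30.8%. Ccl5, a ligand of Ccr1 made by T and NK cells among others, rose by 3.17 (SE 0.419, adjusted p = 0.00032) in control and 2.90 (SE 0.416, adjusted p = 0.0029) in Sox2Hi grafts, from 37.3 ± 8.67 to 334 ± 143 CPM and from 38.2 ± 12.8 to 285 ± 200 CPM. Ccl12, a Ccr2 ligand encoded in the stretch of Ccl2, rose by 0.94 (adjusted p = 0.0069) and 0.92 (adjusted p = 0.039). Their interactions, -0.27 (SE 0.582) for Ccl5 and -0.02 (SE 0.325) for Ccl12, were not called by edgeR, while DESeq2 called that of Ccl12 (-0.89, adjusted p = 0.03). Ccl19, a ligand of Ccr7, rose by 2.60 in control grafts (adjusted p = 0.011), with treated libraries at 5.88 and 29.8 CPM. Ccl11 and Ccl25, at means of 10.1 and 7.11 CPM, and Ccl21a, at 6.84 CPM, were not called by edgeR in any of the 5 comparisons, while DESeq2 called Ccl11 higher with treatment in control grafts (1.61, adjusted p = 0.0073).

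All 12 other CC and atypical receptor genes were tested, and 2 were higher and 3 lower with treatment in control grafts, beside 12.5% and 36.1% of all genes. DESeq2 called 2 higher and 0 lower there, with an adjusted p for all 12, beside 22.7% and 4.16% of genes. Ccrl2, a receptor that binds chemerin without signalling, was the most abundant, at 884 ± 208 CPM in naive control and 2566 ± 228 CPM in treated control, a rise of 1.54 (SE 0.246, adjusted p = 0.00091). In Sox2Hi it was at 891 ± 248 and 1659 ± 129 CPM (0.90, adjusted p = 0.056, and 0.66 with an adjusted p of 0.021 by DESeq2). Ccr3, the eotaxin receptor of eosinophils, fell in Sox2Hi grafts (log2 difference -2.11, SE 0.364, adjusted p = 0.0091), from 35.9 ± 12.3 to 8.35 ± 3.78 CPM. Between naive grafts it was not called by edgeR (0.79, adjusted p = 0.1). DESeq2 (1.2, adjusted p = 0.0015) and limma-voom (0.859, adjusted p = 0.016) called it higher in naive Sox2Hi. In control grafts the difference of Ccr3 with treatment was -0.32 (adjusted p = 0.43), and the interaction of -1.79 (SE 0.482, adjusted p = 0.019) was called. Of the 12 genes it was the 1 called with the lower response in Sox2Hi, while 3 had the higher response, beside 4.42% and 26.8% of all genes. DESeq2 called 3 lower and 0 higher, beside 30.8% and 5.02%. The 8 eosinophil markers, of which Ccr3 is 1, summed to 63 to 97.4 CPM in naive and 26.9 to 38.1 CPM in treated Sox2Hi libraries, and to 37.2 to 62.4 and 31.1 to 43 CPM in control ones. Their part in the Ccr3 difference was not tested. Ccr9, the receptor for Ccl25, fell by 0.87 on the log2 scale in control grafts (adjusted p = 0.022), a call that DESeq2 did not make (-0.20, adjusted p = 0.61). Its interaction was called by edgeR, with the higher response in Sox2Hi (1.225, SE 0.38, adjusted p = 0.031), and not by DESeq2 (0.32, adjusted p = 0.52). Ccr7 was not called by edgeR in any comparison, while DESeq2 called it higher in naive Sox2Hi than in naive control (2.04, adjusted p = 0.046). Its naive Sox2Hi libraries ranged from 3.13 to 34.9 CPM (14.7 ± 17.5), overlapping the 3.55 to 6.06 CPM of naive control.

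Downstream of the receptors, a list of 21 genes for G protein subunits, kinases, arrestins, regulators and Rac activation was read. In control grafts 13 of 21 were higher with treatment and none was lower, with a median of 0.93, beside 12.5% of all genes called higher. By level, 23.8% of genes at 5 to 100 CPM, where 16 of the 21 lie, and 59.8% of those at 100 CPM or more were called higher. Rac2, the Rac protein of blood cells that drives movement, rose by 1.86 (SE 0.254, adjusted p = 0.00037), from 81.8 ± 22.4 to 298 ± 90.1 CPM. Rgs1, which shortens G protein signals, rose by 1.25 (SE 0.244, adjusted p = 0.0025), and Arrb2, an arrestin that ends receptor signalling, by 1.32 (SE 0.268, adjusted p = 0.0031). In Sox2Hi grafts edgeR called 0 of 21, beside 3.36% of all genes higher and 1.66% lower, with 8 at an unadjusted p under 0.05 and a median of 0.42. DESeq2 called 1 higher and 2 lower, beside 6.48% and 15.5% of genes, and limma-voom 2 higher and 1 lower, beside 7.67% and 4.21%. The interaction was called for 4 of 21, Gnai3, Arrb2, Rgs1 and Rac2, named for this after their values were seen, all with the lower response in Sox2Hi, beside 4.42% of all genes, 7.8% of those at 5 to 100 CPM (Arrb2) and 31.3% of those at 100 CPM or more (the other 3). Gnai3, an inhibitory G protein subunit, rose by 0.58 in control grafts (adjusted p = 0.0075) and differed by -0.15 in Sox2Hi grafts (adjusted p = 0.55), where both treated libraries lay below the naive ones. DESeq2 called the interaction for 16 of 21 in this direction, beside 30.8% of genes, and limma-voom for 5, beside 6.22%.

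Transcripts of cell types moved with the same groups. The counts of markers are edgeR's and stand beside 12.5% of all genes called higher and 36.1% lower with treatment in control grafts, and 3.36% and 1.66% in Sox2Hi grafts, shares that depended on the scaling as given above. All 12 neutrophil markers were higher with treatment in control grafts (median 1.5), and 4 were higher in Sox2Hi grafts. Between treated grafts 5 were lower in Sox2Hi than in control, beside 3.29% of all genes and 28.2% of those at 100 CPM or more. Their summed level was 12387 to 20141 CPM in naive control, 40527 to 43243 in treated control, 11802 to 17478 in naive Sox2Hi and 20928 to 21144 in treated Sox2Hi libraries. The 10 monocyte markers summed to 347 to 396, 1224 to 1423, 416 to 476 and 662 to 1023 CPM in the same order, with 5 higher and 1 lower in control and 3 higher in Sox2Hi grafts. The median log2 difference of these 10 was 0.946 in control and 0.669 in Sox2Hi grafts. Ly6c2, a marker of classical monocytes and 1 of the 10, rose by more than these medians. Its rise was 4.26 (adjusted p = 1.2e-05) in control and 2.97 (adjusted p = 0.00037) in Sox2Hi grafts. Cx3cr1, of the same list, was at 3.27, 5.48 and 3.71 CPM in naive and 2.08 and 3.24 CPM in treated control libraries. The 12 macrophage markers summed to 884 to 1306, 1288 to 1973, 1285 to 1839 and 1031 to 1920 CPM, with 3 higher in control and 1 higher in Sox2Hi grafts. T and NK markers (11) summed to 53.4 to 89.6, 136 to 452, 39.9 to 132 and 156 to 259 CPM, with 4 higher and 1 lower in control and 2 higher in Sox2Hi grafts. Fibroblast and endothelial markers (10) went from 301 to 787 CPM to 112 to 138 CPM in control grafts, 8 of them lower, and from 505 to 693 CPM to 129 to 341 CPM in Sox2Hi. The other lists summed to 44.5 to 193 CPM over all libraries for 10 dendritic cell markers, 872 to 1824 for 10 mast cell and basophil markers, 26.9 to 97.4 for 8 eosinophil markers and 771 to 2991 for 10 keratinocyte markers. With treatment in control grafts 3 dendritic, 7 mast cell and basophil, 1 eosinophil and 5 keratinocyte markers were lower, and 2 mast cell and basophil and 1 eosinophil markers were higher. In Sox2Hi grafts 1, 1, 2 and 2 were lower in the same order and 1 mast cell and basophil marker was higher. The part of these cell types in the chemokine and receptor differences was not tested. In bulk libraries fewer cells of a type and less RNA per cell cannot be told apart.

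Set against neutrophil transcripts, Ccr1 varied little: per 1000 counts of the 12 neutrophil markers it had 153 ± 2.8 and 148 ± 12 counts in naive and treated control libraries and 176 ± 12.5 and 167 ± 40.6 in naive and treated Sox2Hi ones. This depends on Il1r2, which was 68% ± 2.46 of the marker counts in naive control and 42.6% ± 8.72 in treated control. Per 1000 counts of the other 11 markers Ccr1 had 482 ± 29.2, 263 ± 61, 559 ± 86 and 343 ± 84.6 counts. Ccl2 had 6.41 ± 1.25, 16.7 ± 6.98, 8.06 ± 0.846 and 13 ± 0.347 counts per 1000 of the 12 markers, and every treated library lay above every naive one. Without Il1r2 these were 20 ± 3.25, 30.3 ± 16.8, 25.7 ± 4.93 and 26.6 ± 0.607, and they overlapped. Ccl7 had fewer counts per 1000 in the treated groups with either denominator, at 21.8 ± 8.07, 10.8 ± 2.44, 21.1 ± 5.15 and 12.8 ± 0.751 for the 12 markers and 67.6 ± 23.6, 18.7 ± 1.41, 67.2 ± 20.3 and 26.3 ± 1.64 for the 11. Ccl9 did too, at 4.33 ± 0.56, 2.14 ± 0.376, 5.84 ± 0.31 and 3.09 ± 1.38 for the 12 markers and 13.5 ± 0.952, 3.82 ± 1.24, 18.6 ± 2.89 and 6.34 ± 2.85 for the 11. For Ccr2 the treated control libraries (3.94 and 6.04 counts per 1000 of the 12 markers) lay above the naive ones (2.11 to 3.77), and per 1000 of the 11 they overlapped (9 ± 3.95 and 8.73 ± 3.43). Ccl8 in control grafts had 12.8 ± 3.81 naive and 10.3 ± 7.9 treated for the 12 markers, overlapping, and 40 ± 11.3 and 17.2 ± 11.2 for the 11, with both treated libraries below the naive ones. Per 1000 counts of the 12 markers, naive and treated control libraries overlapped for Ccl3 (90.6 ± 29.3 and 125 ± 24.4), Ccl4 (76.2 ± 31.1 and 92.9 ± 9.46) and Ccl6 (62.7 ± 12.8 and 72.3 ± 4.49). Per 1000 of the other 11 the treated means were the lower ones, at 280 ± 71.4 and 224 ± 76.6 for Ccl3, 234 ± 80 and 163 ± 8.21 for Ccl4 and 195 ± 25.1 and 128 ± 27.3 for Ccl6, without overlap for Ccl6. In Sox2Hi all 3 were lower in treated than in naive libraries per 1000 of the 11, without overlap, at 147 and 171 against 246 to 343 for Ccl3, 125 and 111 against 159 to 220 for Ccl4 and 103 and 146 against 219 to 264 for Ccl6. On that scale the treated grafts overlapped for Ccl6 (109 and 147 in control) and for Ccl3 (170 and 279), and not for Ccl4 (157 and 168). The summed CPM of the 12 markers rose with treatment in both grafts, while the part of Il1r2 fell, in Sox2Hi from 68.2% ± 3.56 to 51.2% ± 0.193. A gene of unchanged CPM therefore falls on these scales, and most on that of the 11. The share of all genes without overlap on these scales was not computed, and no test was run on the ratios. These denominators were also chosen after the levels were seen.

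The pattern across the 10 libraries was compared between each of the 9 genes and 9809 named genes averaging 5 CPM or more. The measure was the root mean square difference of log2(CPM + 1) after centring, where 0 is an identical pattern. Ccl3 and Ccl4 were each other's nearest gene at 0.231. For Ccr1 the nearest were Tax1bp1 (0.052), Snap23 (0.0688) and Rab7 (0.0871), and its nearest chemokine was Ccl6 (0.2). Ccl6 itself was nearest to Pts (0.174), Lilrb4a (0.179) and Il1rn (0.183). Ccr2 was nearest to Clec12a (0.229), Ms4a6b (0.235) and Ptpro (0.272). Ccl2 had Ankrd37, Hilpda and Tma16 at 0.259 each, while its nearest gene among the 9 was Ccl3 at 0.539. Ccl8 had Folr2 (0.198), Dusp22 (0.319) and Ccl12 (0.338) nearest. For Ccl7 they were Kntc1 (0.153), Commd1 (0.154) and Gtf2a2 (0.155), and for Ccl9 Fam107b (0.203), Il1rap (0.204) and Il1bos (0.208). After each other, Ccl3 had Clec4d (0.261) and Schip1 (0.266), and Ccl4 had Hnmt (0.328) and Samsn1 (0.336).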

How the data were processed

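Bulk RNA of Tomato-sorted tumour neutrophils was sequenced in 10 libraries, made with a kit for low RNA input, per the labels' protocols. The authors deposited 1 table of estimated counts per gene, not normalized, whose values are already whole numbers. The submitters' processing notes list kallisto 0.44.0 and mm10. Strandedness and annotation are not given in the sources used here, so reads of overlapping genes on opposite strands cannot be told apart. Of 55481 entries, 96 are no mouse gene (at most 0.00277% of a library's counts) and were left out of library sizes and tests. GENCODE M21 (GRCm38) gave symbols, exons and coordinates for 55144 of 55385 identifiers.

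Groups follow the graft and treatment labels. All 10 libraries entered 1 fit in edgeR 4.0.16 (R 4.3.3) with filterByExpr (29648 genes), TMM factors from the 11274 genes averaging 5 CPM or more, the quasi-likelihood test, 5 contrasts and Benjamini-Hochberg adjustment over all genes (called under 0.05). CPM are scaled by these factors, and CPM per kb uses the union of a gene's exons. The common biological coefficient of variation was 0.235. Alternatives were other scaling factors and filters, DESeq2 1.42.0, limma 3.58.1 voom, background subtraction (median rate of 1464 olfactory and vomeronasal receptor genes), replicate blocks, the 2 groups alone, and each library left out. The genes described and the lists were chosen with earlier results of these data known. All 9 genes are named, as are other CC chemokine and receptor genes averaging 5 CPM or more, and the 3 genes of most like pattern for each of the 9. One gene of the receptor list is not reported here by name, though it stays in that list's counts. Marker lists covered neutrophils, macrophages, monocytes, dendritic cells, mast cells and basophils, eosinophils, T and NK cells, fibroblasts and endothelium, and keratinocytes.

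No pair of replicates came close to sampling noise (smallest chi-square per degree of freedom 12.5). Whether title numbers pair libraries was read from the correlation, across genes, of their deviations from the group mean. The 3 naive pairs gave 0.269, 0.327 and 0.474 and were taken as paired, a reading from the same data as the blocked fits. With 2 treated libraries in a group their deviations mirror each other, so both treated pairs give 1 value, -0.0918. No label states what such a number stands for.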

Additional observations from a re-analysis of the deposited data

Results flagged for a closer look

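The interaction term of the edgeR fit was called for Ccl2, Ccl3 and Ccl6, 3 of the 9 genes. The log2 difference of responses (Sox2Hi minus control) was -1.55 for Ccl2, -1.66 for Ccl3 and -1.39 for Ccl6. Of all genes tested, 4.42% were called in this direction, and of those at 100 CPM or more, where these 3 lie, 31.3%. The call for Ccl2 was kept in all 20 alternatives run, while that for Ccl3 was lost in 4 and that for Ccl6 in 5, among them background subtraction and the omission of control treated replicate 2 or Sox2Hi treated replicate 1. Ccl2 rose in both grafts and by less in Sox2Hi, while Ccl3 and Ccl6 were called higher in control grafts alone. The neutrophil markers, of which 3 of 12 had a called interaction in the same direction, moved with these genes, and their part in the difference was not tested.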

How the results depend on the processing

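Of 45 differences of single genes 16 were called, and over 945 alternative values 807 kept direction and side of the threshold, 49 lost a call, 49 gained one and 40 changed sign. None of the 40 was called, and the only called difference among them was that of Ccl8 with treatment in control grafts. The count of called genes in control grafts (7) ran from 6 to 9 over all 21 alternatives. In Sox2Hi grafts (1) it was 3 with all genes with a count, 3 with only genes of 5 CPM or more, 2 with DESeq2, 3 with limma-voom, 2 with either replicate block (title or description number), 3 with the groups alone, and 0 to 2 without a library. Between naive grafts (0) it was 3 with DESeq2, 1 with limma-voom, 2 with the replicate block in naive libraries alone, and 0 without any library. Between treated grafts (5) it was 1 after background subtraction, 3 with the groups alone, and 0 to 6 without a library. The interaction (3) gave 7 with factors from all filtered genes, 7 with DESeq2, 1 after background subtraction, 5 with the replicate block by title number, and 1 to 4 without a library. The block by either number over all libraries changed no other count by over 1.5 times. The cause of these changes was not tested.

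Signs changed as follows (log2). With library totals: Ccl7 -0.214 and Ccl9 -0.31 (treatment, control), Ccl3 -0.0775 and Ccl6 -0.121 (treatment, Sox2Hi), Ccl3 0.0171 (naive grafts), Ccl8 0.0654 (treated grafts). With DESeq2: Ccl3 -0.035 and Ccl6 -0.0664 (treatment, Sox2Hi), Ccl3 0.336, Ccl7 0.214 and Ccr2 0.2 (naive grafts), Ccl8 -0.728 (interaction). With factors from all filtered genes: Ccl6 -0.0249 (treatment, Sox2Hi), Ccl3 0.246, Ccl7 0.123 and Ccr2 0.0925 (naive grafts), Ccl8 -0.468 (interaction). With limma-voom: Ccl6 -0.0777 and Ccr2 0.0208 (naive grafts). With background subtracted: Ccr1 -0.0896 (naive grafts). With the replicate block by title number: Ccl6 -0.0385 (treatment, Sox2Hi). Leaving out a library gave ranges across 0 for Ccl8 (-0.0923 to 1.79) and Ccl9 (-0.029 to 0.419) with treatment in control, and Ccl6 (-0.102 to 0.391) with treatment in Sox2Hi. Between naive grafts they were Ccl3 (-0.531 to 0.245), Ccl6 (-0.169 to 0.315), Ccl9 (-0.0262 to 0.382), Ccr1 (-0.206 to 0.194) and Ccr2 (-0.62 to 0.278). Ccl8 ran from -0.978 to 0.892 between treated grafts and from -0.545 to 1.33 in the interaction, and Ccr2 from -1.39 to 0.163 in the interaction.

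With 2 treated libraries per graft, a lone remaining library was assumed to vary like the other groups. The fit of the 2 groups alone could not be fitted for the interaction. Factors from all filtered genes moved the median of all genes from -0.722 to -0.298 (treatment, control), 0.273 to 0.0702 (treatment, Sox2Hi), -0.373 to -0.0812 (naive grafts), 0.466 to 0.13 (treated grafts) and 0.846 to 0.216 (interaction).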
